A study of Homo sapiens with 42 samples.

Results

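HSat5 is one of the lesser families of tandemly repeated satellite DNA in the human centromeric regions. The HSat5 regions described here are the counted regions whose name starts with censat_ and contains HSat5. The name alone chose them, and the family was taken up with earlier results of these counts known, among them its levels under mitoxantrone. They number 84 of the 2523 regions counted, and in each of the 84 names HSat5 is the sole component given. The table also holds 578 other censat_ regions, the class for centromeric satellites without a class of their own, and 64 regions of gamma satellite. A further 3 regions carry HSAT5 in capitals within a longer list of repeats and were not counted as members. Lengths and coordinates of the regions were not used here, so a region with more reads is not thereby denser in reads.

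Human centromeres are built on alpha satellite, on which the kinetochore forms, and other satellite families, HSat5 among them, lie in the DNA around it. Topoisomerase 2 cuts both strands of one DNA double helix, passes another through the gap and reseals the cut, and in dividing cells it frees sister chromatids, centromeres included, from the links that replication leaves. TOP2A is the form that rises in dividing cells, while TOP2B is also present in cells that do not divide. Etoposide and mitoxantrone are poisons of the enzyme: they keep it bound to the ends of the DNA it has cut.

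KG1 cells, an established line from a human acute myelogenous leukaemia, were exposed for 1 h to 100 µM etoposide, to 20 µM mitoxantrone or to vehicle (no drug). DNA was recovered without formaldehyde with an antibody to TOP2A or to TOP2B, or was sequenced as input. The etoposide series held 4 replicas and the mitoxantrone series 3, and each replica held 6 libraries: TOP2A, TOP2B and input with drug, and the same kinds without it. The 42 libraries came from this 1 cell line, and the labels do not say whether the replicas were separate cultures, so p-values measure spread between samples that may be technical.

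Depth differed widely. The libraries held 552909 to 59639786 reads, of which 23900 to 3207823 lay in the counted regions and 9 to 1847, with a median of 223.5, in HSat5. HSat5 took 0.0582% of the region reads of all libraries together. Between 21.1% and 68.3% of a library's reads had been set aside for low mapping quality, where reads from near-identical repeats may go, and how many of them came from HSat5 is not known. Libraries with fewer than 20 HSat5 reads were the etoposide TOP2A library of replica 2 with 18, the etoposide TOP2A and TOP2B libraries of replica 3 with 9 each, and the no-drug TOP2A library of mitoxantrone replica 2 with 16. Each series had its own replicas, and the series share 1 sequencing order, which holds etoposide replicas 3 and 4 and mitoxantrone replica 2. Read length also differed: 38 bases in etoposide replica 1, 100 in mitoxantrone replica 1 and 50 in the other replicas. In mitoxantrone replica 1, 54.5% to 68.3% of a library's reads had low mapping quality.

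The reads of HSat5 lay mostly in a few regions. Of the 84 regions, 72 had at least 1 read and 12 had none in any library. Of those with reads, 15 had fewer than 10 in all 42 libraries together. Chromosomes 8, 19 and 9 held 24.2%, 16.1% and 15.3% of the HSat5 reads. Chromosome 2 held 9.42%, chromosome 20 held 8.49%, chromosome 21 held 7.37% and chromosome 18 held 5.29%. The acrocentric chromosomes 13, 14, 15, 21 and 22, whose short arms carry the ribosomal DNA, held 48 of the regions but 12.9% of the reads, with a median of 11 reads a region. The other chromosomes held 36 regions and 87.1% of the reads, with a median of 146 reads a region. HSat5 as counted here was thus, by regions, most often acrocentric and, by reads, mostly not.

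**Figure D1:**
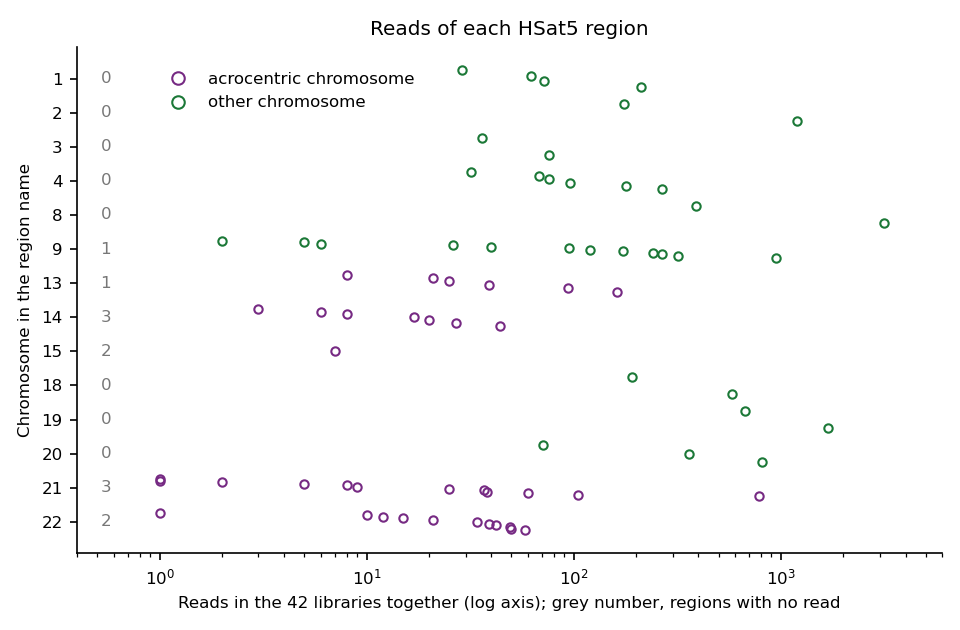
Each point is 1 HSat5 region with at least 1 read, placed by its reads in the 42 libraries together on a log axis and by the chromosome in its name; grey numbers count the regions with no read. The highest points are censat_8_2 with 3144 reads and censat_19_1 with 1682, while most points of chromosomes 13, 14, 15, 21 and 22 lie below 100.

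The 12 regions with the highest mean level held 76.2% of the HSat5 reads. Region censat_8_2 led with 3144 reads, 21.5% of the family, and a mean of 124 CPM, here counts per 1000000 region reads of the library. Region censat_19_1 followed with 1682 reads and a mean of 73.8 CPM, and censat_2_25 with 1201 reads and 53.8 CPM. These 3 regions lie on 3 different chromosomes.

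Next in level came censat_9_26 with 946 reads and 44.2 CPM, and censat_20_12 with 810 reads and 35.2 CPM. The most abundant acrocentric member was censat_21_52, with 786 reads and 30.2 CPM. The remaining 6 of the 12 had means of 14.1 to 23.4 CPM: censat_19_2, censat_18_3, censat_20_13, censat_8_1, censat_9_41 and censat_9_61. Reads in every library were found for 2 regions, censat_8_2 and censat_19_1, and the others of the 12 had reads in 36 to 41 libraries. The other 60 regions with reads had a median of 36.5 reads over all libraries, and none had more than 268.

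**Figure D2:**
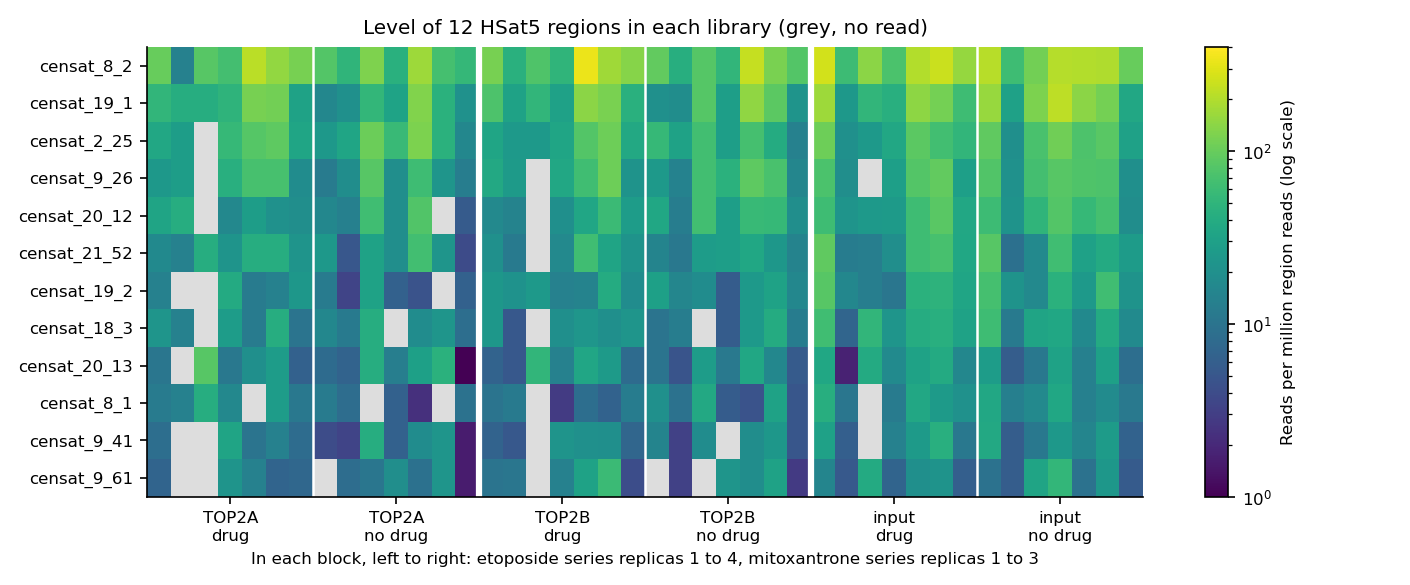
Colour gives the level of the 12 most abundant HSat5 regions in each library, in CPM of region reads on a log scale, with grey where a library had no read; columns are grouped by TOP2A, TOP2B and input, each with drug and then without. Grey cells lie mostly in shallow libraries such as those of etoposide replica 3 with drug, and the no-drug TOP2A columns are dark for censat_19_2.

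The summed level of the family varied 7.07-fold between libraries. The highest was 1315 CPM in the etoposide input of replica 1 (95% Wilson interval 1243 to 1392) and the lowest was 186 in the no-drug TOP2A library of mitoxantrone replica 3 (164 to 211). Intervals cover counting error only. At the lowest depth, in the etoposide TOP2A library of replica 3, the interval ran from 198 to 716 around 377 CPM. In that library a region with no read could still lie at up to 126 CPM, the level that 3 reads would give, which is above the mean of every member. At the highest depth the same limit was 0.935 CPM.

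Without drug, the summed HSat5 share was on the mean lower in pulldown DNA than in input DNA, in both the TOP2A and the TOP2B libraries. In TOP2A pulldown the family stood at 294, 246, 831 and 310.0 CPM in etoposide replicas 1 to 4 and at 901, 364 and 186 in mitoxantrone replicas 1 to 3. In input it stood at 1166, 317, 718 and 1264, and at 944, 978 and 408. TOP2A pulldown was lower than its own input in 6 of 7 replicas, the exception being etoposide replica 3. The mean log2 difference was -0.96 (0.514-fold, SD 0.90, n = 7), with values from -2.01 to 0.22. The ranges of the TOP2A and input groups overlapped.

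TOP2B pulldown without drug stood at 397, 229, 636 and 387 CPM in the etoposide replicas and at 1001, 749 and 287 in the mitoxantrone replicas. It was lower than input in 6 of 7 replicas, here with mitoxantrone replica 1 as the exception. The mean log2 difference was -0.67 (0.629-fold, SD 0.68, n = 7), from -1.70 to 0.08. Both isoforms thus lay below input on the mean. The largest gaps, in etoposide replicas 1 and 4, were -1.98 and -2.01 for TOP2A and -1.55 and -1.70 for TOP2B. TOP2A minus TOP2B was -0.29 on the log2 scale (SD 0.46, n = 7), lower in 5 of 7 replicas.

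**Figure D3:**
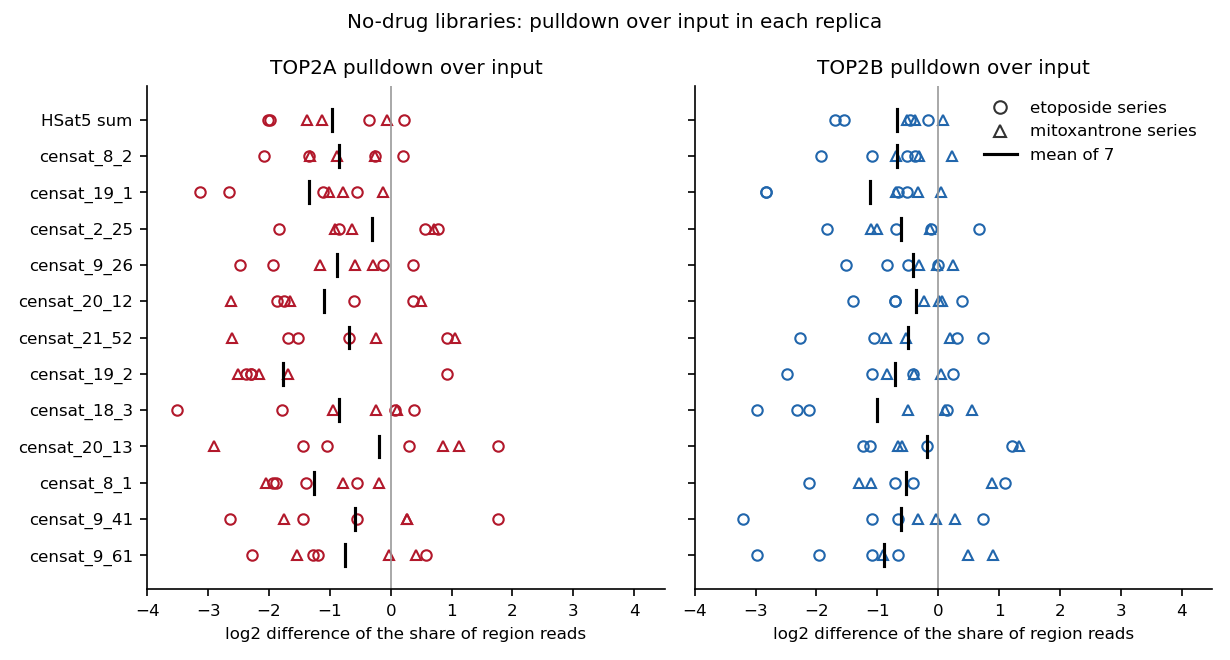
Each point is 1 replica without drug, placed by the log2 difference between TOP2A (left) or TOP2B (right) pulldown and its input in the share of region reads, for the family sum and the 12 most abundant regions; black ticks are means of 7 replicas, and a point with 0 reads rests on the 0.5 added to counts. The ticks lie left of 0 in both panels for each line, and the points of most regions cross 0 in at least 1 replica.

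Single regions were tested with edgeR's quasi-likelihood test in a fit of the 21 no-drug libraries, with the replica as a block and 1028 regions passing the filter on low counts, 6 of the 84 HSat5 regions among them. After Benjamini-Hochberg adjustment 0 of the 6 passed a threshold of 0.05 in either pulldown, and 0% of all regions tested passed. All 6 had lower levels in TOP2A pulldown than in input, with a median log2 difference of -0.93, where the median over all regions was -0.02. In TOP2B pulldown all 6 were also lower, with a median of -0.73 against -0.02 over all regions. A region can pass the filter through its input libraries alone, which favours lower pulldown values where reads are few. How far this acted on the 6 was not tested. At an unadjusted p under 0.05 there were 5 of the 6 in TOP2A, where 14.6% of all regions met this, and 3 of the 6 in TOP2B, where 6.91% did. With DESeq2, 2 of the 6 passed after adjustment in TOP2A, against 2.43% of all regions, and 0 in TOP2B.

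Region censat_19_1 had the lowest fitted value of the 6 in both pulldowns. It had 16.1 to 130.0 CPM in TOP2A pulldown (median 32.3), against 30.8 to 222 in input (median 122), and was lower than input in each of 7 replicas. Its edgeR log2 difference was -1.39 (SE 0.38, adjusted p 0.133), and DESeq2 gave -1.51 (SE 0.42, adjusted p 0.0267). In TOP2B pulldown it had 18.9 to 147 CPM (median 28.4), and the edgeR log2 difference from input was -1.15 (SE 0.36, adjusted p 0.462).

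Region censat_8_2 had 45.2 to 167 CPM in TOP2A pulldown (median 68.2), against 61.5 to 208 in input (median 198). The ranges overlapped, yet it was lower than its own input in 6 of 7 replicas. Its edgeR log2 difference was -0.93 (SE 0.26, adjusted p 0.133), and DESeq2 gave -0.94 (SE 0.28, adjusted p 0.0406). In TOP2B pulldown it had 42.6 to 234 CPM (median 82.99) and a log2 difference from input of -0.71 (SE 0.25, adjusted p 0.462).

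The other 4 tested regions did not pass with either tool. In TOP2A pulldown, censat_21_52 had an edgeR log2 difference from input of -0.99 (SE 0.44), censat_20_12 of -0.93 (SE 0.37), censat_9_26 of -0.90 (SE 0.32) and censat_2_25 of -0.40 (SE 0.32). In TOP2B pulldown these values were -0.82, -0.49, -0.53 and -0.75 in the same order. Region censat_2_25 was the only one of the 6 whose fitted value was nearer to 0 in TOP2A than in TOP2B; this contrast was not tested.

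The filter on low counts left out a region with low TOP2A values. Region censat_19_2 had 0 to 31.6 CPM in TOP2A pulldown without drug (median 6.36), 5.69 to 31.9 in TOP2B (median 18.4) and 16.7 to 68.8 in input (median 25.1). Its log2 differences between TOP2A and input were -2.29, -2.38, 0.92 and -2.29 in etoposide replicas 1 to 4 and -2.16, -2.50 and -1.68 in mitoxantrone replicas 1 to 3. The -2.50 of mitoxantrone replica 2 comes from 0 TOP2A reads and the 0.5 added to counts; 3 reads there would give 68.2 CPM, above its input level, so the direction was not measured in that replica. Of the other 6 replicas, 5 were lower, on 1 to 8 TOP2A reads each, and etoposide replica 3 was higher, on 3 reads in each of these libraries. In an edgeR fit with no filter its log2 difference was -2.15 (0.226-fold, SE 0.39, adjusted p 0.00128). With the filter but without etoposide replica 3, it was the only region of all 1165 tested to pass, which made 0.0858%. The value there was -2.45 (SE 0.37, adjusted p 0.00679). That fit leaves out the replica that was higher. With so few TOP2A reads, the region passed the filter there through TOP2B and input libraries. Both favour a lower TOP2A value, so this result is no separate support. In TOP2B the unfiltered value was -0.76 (SE 0.32, adjusted p 0.637). TOP2A minus TOP2B without drug was -1.07 within replicas (SD 1.09), lower in 5 of 7, and was not tested.

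Without the filter, 69 HSat5 regions had reads in the no-drug libraries and were fitted. Of these, 65 were lower in TOP2A pulldown than in input, with a median log2 difference of -0.97, where 56.8% of all 2329 regions were lower and the median was -0.06. In TOP2B 62 of the 69 were lower, with a median of -0.76, where 57.4% of all regions were lower and the median was -0.06. The regions that passed in TOP2A numbered 3, all lower in pulldown: censat_19_2, censat_19_1 (-1.38, SE 0.32, adjusted p 0.0144) and censat_8_2 (-0.94, SE 0.24, adjusted p 0.0341). They stand against 1.67% of all regions under the same rule. Leaving out mitoxantrone replica 1, with the filter, 3 of 5 tested HSat5 regions passed in TOP2A, against 4.91% of all regions. In TOP2B 0 passed without the filter, and 12 of the 69 had an unadjusted p under 0.05, where 5.8% of all regions did. Many of the 69 rest on few reads, and their fitted values are then imprecise. Input held more region reads than either pulldown in each no-drug replica. A region with few reads can thus have reads in input and 0 in pulldown, and come out lower. The shares over all regions were not matched for read count, so the counts of 65 and 62 have no like background.

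The lower level in pulldown was not confined to the abundant regions or to one kind of chromosome. The 72 regions outside the 12, summed, had a mean log2 difference from input of -1.07 in TOP2A (SD 0.88, lower in 6 of 7) and of -0.66 in TOP2B (SD 0.65, lower in 7 of 7). HSat5 on acrocentric chromosomes had -0.92 in TOP2A (SD 0.96) and -0.80 in TOP2B (SD 0.81). HSat5 on the other chromosomes had -0.96 (SD 0.90) and -0.65 (SD 0.67). These sums come from the same 7 replicas, and the spread of the differences between them was not computed. Whether they differ was therefore not tested.

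Other satellites set beside HSat5 moved the same way by smaller or like amounts. Gamma satellite, a GC-rich repeat near some centromeres, had a mean log2 difference of -0.69 in TOP2A (SD 0.82) and -0.51 in TOP2B (SD 0.72), and all 21 of its tested regions were lower in both pulldowns, with medians of -0.83 and -0.67. The other censat_ regions had -0.26 (SD 0.28) and -0.20 (SD 0.24). Centromeric transition regions, which hold most of the counted reads, had 0.01 in both (SD 0.03 and 0.02). A lower level in pulldown was therefore not particular to HSat5. No test of the difference between these classes was made.

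With drug, HSat5 still stood mostly below input in the pulldowns. In the drug-treated replicas TOP2A minus input was -0.55 on the log2 scale (SD 0.56, lower in 6 of 7) and TOP2B minus input -0.56 (SD 0.57, lower in 7 of 7). Under mitoxantrone TOP2A minus input was -0.53, -0.62 and -0.65 in the 3 replicas, a narrow range, and TOP2B minus input was -0.15, -0.22 and -0.49. Under etoposide TOP2A minus input was -1.61, -0.18, -0.47 and 0.22, and TOP2B minus input was -1.55, -0.07, -1.17 and -0.28. Etoposide replica 1 lay lowest in both pulldowns of that series.

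Etoposide gave no change of HSat5 that ran the same way in all replicas. In TOP2A pulldown the family stood at 431, 253, 377 and 491 CPM with etoposide in replicas 1 to 4, against 294, 246, 831 and 310.0 without drug. The mean log2 change was 0.05 (1.04-fold, SD 0.79, n = 4), higher in 3 replicas. Replica 3 alone was lower, by 1.07 on the log2 scale, with 9 reads in the etoposide library. Without replica 3 the mean was 0.43, and without the 2 replicas that have a library of fewer than 20 reads it was 0.60.

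In TOP2B pulldown the family stood at 449, 280.1, 231 and 348 CPM with etoposide, against 397, 229, 636 and 387 without. The mean log2 change was -0.27 (0.828-fold, SD 0.77), higher in 2 replicas and lower in 2, and without replica 3 it was 0.10, of the other sign. In input the family stood at 1315, 295, 543 and 423 CPM with etoposide, against 1166, 317, 718 and 1264 without. The mean log2 change in input was -0.48 (0.719-fold, SD 0.77), lower in 3 of 4 replicas. Replica 4 carried most of it: its input value was -1.58, and without it the mean was -0.11.

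**Figure D4:**
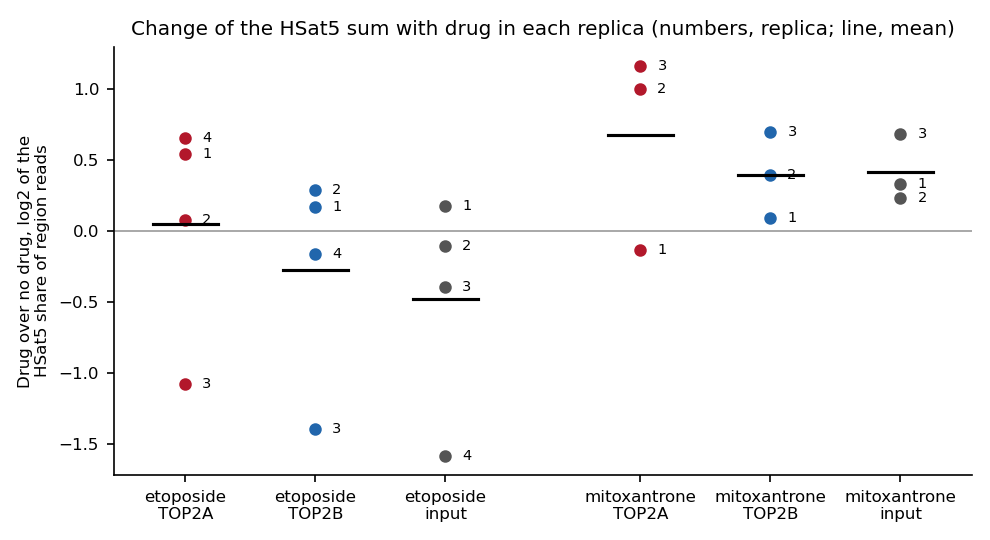
Each point is the log2 change of the HSat5 share of region reads with drug in 1 replica, numbered, for TOP2A, TOP2B and input in each series; black lines are means of 4 etoposide or 3 mitoxantrone replicas. Etoposide points lie on both sides of 0 in each kind, while mitoxantrone points lie above 0 except for TOP2A in replica 1.

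In edgeR's fit of the 24 etoposide-series libraries, 9 HSat5 regions were tested and 0 passed in any kind of library, where 0% of the 1068 regions tested passed. At an unadjusted p under 0.05 there were 0 of the 9 in each kind, and DESeq2 called 0. The median log2 change of the 9 was 0.16 in TOP2A (8 higher), 0.01 in TOP2B (5 higher) and -0.32 in input (1 higher). Over all regions these medians were -0.05, 0.07 and 0.09. The other censat_ regions had 0.19, -0.24 and -0.30, and gamma satellite 0.30, -0.48 and -0.43. Fitted HSat5 changes among the largest lay within 2 SE of 0: censat_20_12 had -1.21 in TOP2B (SE 0.77), censat_9_26 had -0.90 in input (SE 0.81) and censat_19_1 had -0.86 in input (SE 0.71). The fits of drug changes had no replica term, so their SE also hold spread between replicas.

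In TOP2A pulldown region censat_19_1 had 52.0, 42.2, 41.8 and 49.7 CPM with etoposide, against 16.1, 20.4, 52.6 and 32.3 without drug. With the count of 0.5 added to both, its log2 change was positive in 4 of 4 replicas, with a mean of 0.86 (SD 0.64); in replica 3 the raw levels run the other way, on 1 read with etoposide and 5 without. In input it had 167, 24.6, 51.7 and 43.5 CPM with etoposide, against 159.7, 30.8, 122 and 222 without, a mean log2 change of -0.92 (SD 1.06). The etoposide effect in TOP2A minus that in input was fitted but did not pass.

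With mitoxantrone, the drug whose values brought the family to attention, the mean HSat5 share was higher in each kind of library, input included, and 0 single regions passed the test. In TOP2A pulldown the family stood at 821, 748 and 416 CPM with mitoxantrone in replicas 1 to 3, against 901, 364 and 186 without drug. The mean log2 change was 0.68 (1.60-fold, SD 0.71, n = 3), higher in 2 of 3 replicas. Without replica 1 it was 1.08, and without replica 2, whose no-drug TOP2A library held 16 HSat5 reads, it was 0.51.

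In TOP2B pulldown the family stood at 1068, 987 and 465 CPM with mitoxantrone, against 1001, 749 and 287 without. The mean log2 change was 0.39 (1.31-fold, SD 0.30), higher in 3 of 3 replicas. In input it stood at 1189, 1150.4 and 655 CPM with mitoxantrone, against 944, 978 and 408 without, and the mean log2 change was 0.42 (1.33-fold, SD 0.23), higher in 3 of 3. Input DNA, which no antibody had touched, thus had a change of like size to that of TOP2B pulldown. The groups with and without mitoxantrone overlapped in each kind of library. Replica 3 was the lowest replica of each group. In both pulldowns the no-drug value of replica 1 also lay above the drug value of replica 2. Summed gamma satellite also had higher means with mitoxantrone, by 0.44 in TOP2A, 0.34 in TOP2B and 0.34 in input. The other censat_ regions, summed, had 0.20, 0.23 and 0.14 in the same order. A higher mean summed share with mitoxantrone was therefore not particular to HSat5. Differences between these classes were not tested.

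In edgeR's fit of the 18 mitoxantrone-series libraries, 17 HSat5 regions were tested and 0 passed in any kind of library, where 0% of the 1416 regions tested passed. DESeq2 called 0 as well. At an unadjusted p under 0.05 there was 1 of the 17 in TOP2A, against 0.353% of all regions, and 0 in TOP2B and in input. The median log2 change of the 17 was 0.17 in TOP2A (12 higher), 0.15 in TOP2B (11 higher) and 0.24 in input (13 higher), and over all regions -0.05, 0.02 and -0.05. The other censat_ regions had medians of 0.19, 0.29 and 0.13, and gamma satellite -0.32, 0.25 and 0.01. The region with the unadjusted p under 0.05 was censat_19_2, whose level in TOP2A pulldown was 11.98, 13.9 and 23.9 CPM with mitoxantrone, against 4.64, 0 and 6.36 without. Its log2 change was 1.78 (SE 0.81, adjusted p 0.999), and this is the region that lay lowest against input in no-drug TOP2A libraries, which both contrasts share.

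Among the more abundant regions, censat_8_2 had 216, 152 and 118 CPM in TOP2A pulldown with mitoxantrone, against 167, 68.2 and 54.1 without, higher in 3 of 3 replicas. In TOP2B it had 339, 172 and 134, against 234, 119.6 and 80.3, and was again higher in 3 of 3. In input it had 202, 248 and 157, against 200.4, 198 and 100.1. Its edgeR log2 changes were 0.72 (SE 0.54) in TOP2A, 0.59 (SE 0.53) in TOP2B and 0.29 (SE 0.52) in input, each within 2 SE of 0. These SE come from a fit with no replica term and so also hold spread between replicas.

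Region censat_21_52, the abundant acrocentric member, was higher in 3 of 3 replicas in TOP2B and in input. It had 63.7, 33.1 and 21.6 CPM in TOP2B with mitoxantrone, against 35.1, 23.9 and 14.5 without, and 61.7, 69.7 and 35.1 in input with mitoxantrone, against 30.8, 39.0 and 26.5 without. Its edgeR log2 changes were 0.72 (SE 0.79) and 0.79 (SE 0.75). Region censat_2_25 had 81.1, 106 and 36.9 in TOP2B, against 67.8, 39.9 and 13.9, and an edgeR log2 change of 0.96 (SE 0.79). In input, 9 of the 12 most abundant regions were higher with mitoxantrone in 3 of 3 replicas, which is also 9 of the 17 tested, where 10.4% of all 1416 regions tested were; this was not tested.

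**Figure D5:**
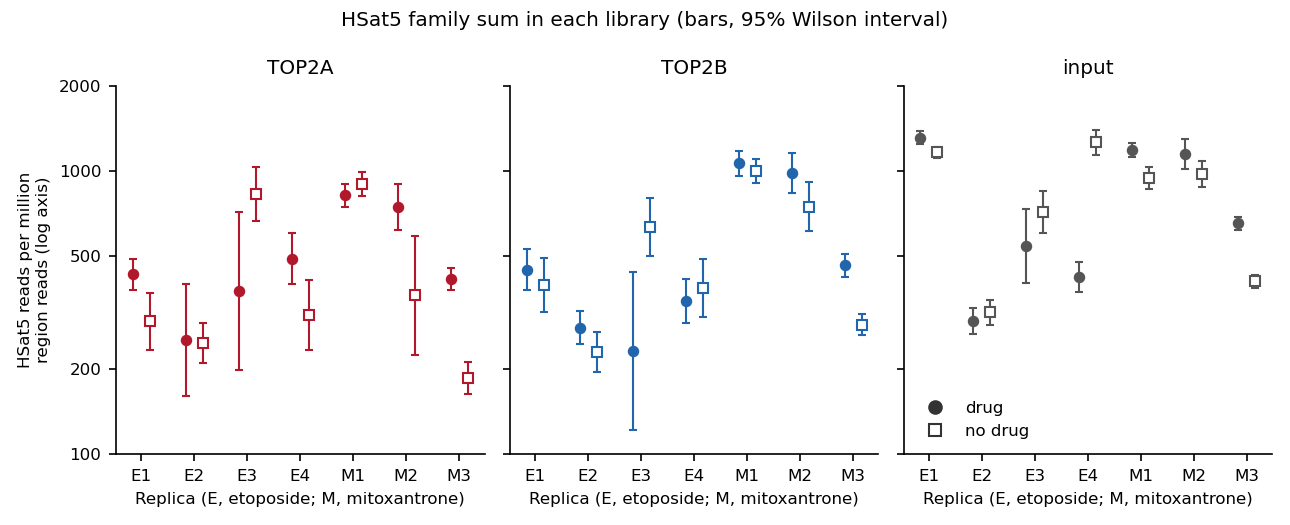
Points are the summed HSat5 level of each library in CPM, relative to region reads, on a log axis, with 95% Wilson intervals, by replica of the etoposide (E) and mitoxantrone (M) series, drug as filled circles and no drug as open squares. Replica M3 lies lowest of the mitoxantrone series in each panel, with and without drug, and the widest intervals are those of E3 with etoposide.

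The drug change in pulldown was set against that in input to ask whether the antibody fraction moved apart from total DNA. For etoposide the TOP2A change minus the input change was 0.37, 0.18, -0.68 and 2.24 in replicas 1 to 4, with a mean log2 of 0.53 (SD 1.23). For TOP2B it was near 0 in replica 1 and 0.40, -1.004 and 1.42 in replicas 2 to 4, with a mean of 0.20 (SD 1.00). For mitoxantrone it was -0.47, 0.77 and 0.48 in TOP2A, with a mean of 0.26 (SD 0.64), and -0.24, 0.16 and 0.01 in TOP2B, with a mean of -0.02 (SD 0.20). Each mean lay within its spread between replicas. With edgeR 0 HSat5 regions passed in these 4 contrasts, where 0% of all regions did, 0 had an unadjusted p under 0.05, and DESeq2 called 0.

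The drug change in TOP2A minus that in TOP2B compares the isoforms and leaves input aside. For etoposide it was 0.37, -0.21, 0.32 and 0.82 in replicas 1 to 4, with a mean log2 of 0.32 (SD 0.42), and for mitoxantrone -0.23, 0.61 and 0.46, with a mean of 0.28 (SD 0.45). Both series had a mean above 0 of similar size and with 1 replica below 0. The etoposide medians over tested regions were 0.37 for HSat5 and -0.08 for all regions, and the mitoxantrone medians were 0.05 and -0.03. The other censat_ regions had medians of 0.45 for etoposide and -0.10 for mitoxantrone, and gamma satellite had 0.75 and -0.50. The etoposide median above 0 was therefore not particular to HSat5. With edgeR 0 HSat5 regions passed, where 0% of all regions did, 0 had an unadjusted p under 0.05, and DESeq2 called 0.

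The etoposide change minus the mitoxantrone change was fitted jointly over the 42 libraries; the doses were 100 and 20 µM and the series had separate replicas, so a difference between series is not one between drugs alone. Of 13 HSat5 regions tested 0 passed in TOP2A, TOP2B or input with edgeR, where 0% of the 1372 regions tested did, 0 had an unadjusted p under 0.05, and DESeq2 called 0. In input the median log2 difference of the 13 was -0.94 (all regions 0.15), while TOP2B gave -0.46 (all regions 0.08) and TOP2A -0.08 (all regions -0.14). In input each of the 13 was lower, from -0.26 to -1.35, where 40.7% of all regions tested were lower. Of the other censat_ regions 134 of 182 were also lower (median -0.30), and of gamma satellite 33 of 40 (median -0.55). The HSat5 median in input rests on single replicas: it was -1.66 without etoposide replica 1 and -0.22 without etoposide replica 4. Within the sequencing order that the series share, with 2 etoposide replicas and 1 mitoxantrone replica, the family changed in input by a mean log2 of -0.99 with etoposide and by 0.24 with mitoxantrone, and 12 of the 13 regions had a lower value, with a median difference of -1.51 (all regions 0.31); it has no test. Region censat_8_1 had the lowest value in input, -1.35 (SE 1.28), and censat_9_26 had -1.11 (SE 1.18, adjusted p 1.00); each lay near the size of its own error.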

How the data were processed

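The submitters' processing notes name Trimmomatic 0.36 for trimming reads, BWA 0.7.17 as the aligner, HTSeq (version string 2.7.13) as the counter and T2T-CHM13 as the genome. The values used are the deposited read counts per region, with no normalisation by the authors. The mapping quality minimum is not given in the sources used here. Between 94.5% and 97.4% of a library's reads stood in tallies of no region, and these stayed out of library sizes and tests.

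Members and lists were chosen with earlier results of these data known. Named regions are the 12 with the highest mean CPM among those passing the filter in either series. Family levels are summed HSat5 reads over region reads, with 0.5 added to the count before log2 differences within replicas; they have no test. Regions were tested with edgeR 4.0.16 (quasi-likelihood, TMM, filterByExpr with a minimum count of 10, Benjamini-Hochberg over all regions tested, two-sided, threshold 0.05) in R 4.3.3. Each series was fitted on its own without a replica term, all 42 libraries jointly, and the 21 no-drug libraries with the replica as a block. The scripts were tested on simulated data with less spread between replicates than the drug fits had. In those fits the median coefficient of variation between replicates was 0.53 (etoposide) and 0.64 (mitoxantrone). The simulation thus does not show what changes the drug fits could detect.

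The replica label, shared by 6 libraries of 1 sequencing order, pairs the libraries. In a check over 912 regions, 17 of 21 drug libraries had deviations from the group mean that correlated above 0.1 with those of their no-drug partner, from -0.52 to 0.93. The others were TOP2A and TOP2B of etoposide replica 3 (-0.13 and 0.09) and TOP2B and input of etoposide replica 4 (-0.20 and -0.52). Their differences within replicas, such as -1.58 for the family in input of replica 4, are less surely paired. The shared sequencing order holds both these replicas. No 2 libraries of a group had identical counts in 54 pairs. Alternatives were DESeq2 1.42.0, other scaling, no filter, the replica as a block, other denominators and pseudocounts, and each replica left out. The etoposide minus mitoxantrone contrast in input and the values within the shared sequencing order were added after the data were seen.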

Additional observations from a re-analysis of the deposited data

Results flagged for a closer look

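In 98 sets of 4 to 7 values, 8 had an end value far from the others by Dixon's ratio. Chance alone gives such a value in about 1 in 20 independent sets. These sets are not independent, since the family sum holds its members and changes are made from levels. In the no-drug TOP2A libraries of the etoposide series, replica 3 stood apart for the family at 831 CPM of region reads (next 310.0), for censat_9_26 at 84.2 (next 19.4) and for censat_20_12 at 63.1 (next 19.4). In the no-drug TOP2B libraries of that series, replica 3 stood apart for censat_19_1 at 82.99 CPM (next 28.4). In the etoposide input libraries, replica 1 stood apart for censat_20_12 at 61.8 CPM (next 26.1) and for censat_21_52 at 92.7 (next 19.1).

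Among log2 changes, replica 3 had the lowest etoposide change of censat_9_26 in TOP2A, at -2.10 (next 0.83). That library had 0 reads of the region, and 3 reads would give 126 CPM, above the 84.2 without drug, so the value is set by the 0.5 added to counts. Replica 1 had the lowest etoposide effect of censat_19_1 in TOP2A minus that in TOP2B, at -0.21 (next 0.51).

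In input, censat_9_26 was lower with etoposide in 4 of 4 replicas and higher with mitoxantrone in 3 of 3, a difference of mean log2 changes of -1.61. The etoposide input library of replica 3 had 0 reads of it, against 12 without drug, and without that replica the difference was -0.89. The opposite directions themselves were not tested; the joint edgeR fit of the same contrast gave -1.11 (SE 1.18, adjusted p 1.00).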

How the results depend on the processing

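The 15 drug contrasts gave 0 HSat5 regions called with DESeq2, no filter, other library sizes, the replicate block and each replica left out. The block, used because the replica label pairs the libraries, changed no call but moved directions. Under it 17 of 17 HSat5 regions had a higher value with mitoxantrone in input (median log2 change 0.37), against 13 without it. Without the block 56.1% of all 1416 regions tested were lower. The share over all regions under the block is not given here, so the 17 of 17 has no background. For no-drug TOP2A against input, the count of 0 became 2 with DESeq2, 3 with no filter, 1 without etoposide replica 3 and 3 without mitoxantrone replica 1, and stayed at 0 with no replicate block; leaving out a replica gave 0 to 3. Without mitoxantrone replica 1 the 3 were censat_19_1 (-1.71, adjusted p 0.0374), censat_8_2 (-1.08, adjusted p 0.0459) and censat_20_12 (-1.45, adjusted p 0.0482), against 4.91% of all regions. Which regions can pass depends on the filter by construction, since it removed censat_19_2; for the other changes the cause was not tested. For no-drug TOP2B against input the count was 0 under each alternative. The median over tested HSat5 regions ran, with etoposide, from -0.38 to 0.86 in TOP2A, -0.65 to 0.18 in TOP2B and -1.60 to -0.12 in input, with mitoxantrone from -0.05 to 1.42, -0.03 to 0.50 and 0.19 to 0.67, and for etoposide minus mitoxantrone from -0.9999 to 0.40, -0.81 to -0.12 and -1.66 to -0.22; fewer or more regions pass the filter when a replica is left out.

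For the summed share, leaving out a replica gave mean log2 changes with etoposide of -0.15 to 0.43 in TOP2A, -0.46 to 0.10 in TOP2B and -0.69 to -0.11 in input, and with mitoxantrone of 0.43 to 1.08, 0.24 to 0.54 and 0.28 to 0.51. The change minus that in input ran from -0.04 to 0.93 (TOP2A) and -0.20 to 0.61 (TOP2B) for etoposide, and from 0.01 to 0.62 and -0.11 to 0.09 for mitoxantrone. The change in TOP2A minus that in TOP2B ran from 0.16 to 0.50 for etoposide and from 0.12 to 0.54 for mitoxantrone. No-drug pulldown against input ran from -1.16 to -0.78 in TOP2A and from -0.79 to -0.50 in TOP2B. Chosen after the data were seen, a sum of the regions outside the 12 gave 0.95 for the etoposide change in TOP2A minus that in TOP2B and -0.25 for the mitoxantrone change in TOP2B minus that in input; the cause was not tested. With region and no-feature reads as denominator, the highest library stood 7.63-fold above the lowest. Of 1404 single-region values, 1245 kept their direction and side of the threshold.

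Depth sets the limits: most HSat5 regions have too few reads to be tested, 6 to 17 of 84 passed the filter, and the pulldown libraries of etoposide replica 3 hold 9 reads with drug. Shares are relative, so a change common to all counted regions is not seen.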
